A study of Homo sapiens with 18 samples.

Results

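The genes described here encode enzymes of NADPH supply, including the pentose phosphate pathway, and enzymes that reduce quinones and carbonyl compounds. They were chosen by gene symbol, and all 9 symbols (PGD, TKT, TALDO1, ME1, NQO1, AKR1B1, AKR1C1, AKR1C2 and AKR1C3) were found among the 56269 genes of the deposited table. RNA was sequenced from IMR90 cells, a line of primary human lung fibroblasts, in 6 groups of 3 replicates, which gave 18 libraries. Cells of each group were held for 6 h in PBS, in 20 μg/ml cNSF-HA or in 20 μg/ml fNSF-HA. HA is hyaluronan, a long sugar polymer of the extracellular matrix, here secreted by skin fibroblasts of the naked mole-rat. For fNSF-HA the polymer was shortened in part with hyaluronidase, and cNSF-HA was the control preparation, mixed with an enzyme that heat had already inactivated. For each pre-incubation there was a group collected at its end. Another group next received the oxidant tBHP (tert-butyl hydroperoxide, 200 μM, 1 h), after removal of any HA, with collection 6 h from the start of that exposure. The groups with tBHP were therefore collected later than those without it. The effects of the oxidant, of the added time in culture and, in the HA groups, of the removal of HA cannot be told apart. All groups came from a single cell line, and the study's methods call its replicates biological. The labels do not say whether they were separate cultures, and the p-values measure the spread between these samples.

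NADPH is the electron donor with which cells regenerate reduced glutathione and thioredoxin after an oxidant challenge. The oxidative branch of the pentose phosphate pathway makes it from glucose, the non-oxidative branch returns the pentose products to glycolysis, and malic enzyme makes it from malate. Quinone and aldo-keto reductases spend it on quinones, aldehydes and ketones that oxidants generate, and many of these genes are known targets of the transcription factor NRF2.

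In IMR90 cells, transcripts of these enzymes were higher in the libraries with tBHP than in those without, whatever the pre-incubation. AKR1C1 had the largest changes, with an interval that overlapped that of AKR1C3 in PBS cells. NQO1 came next after the AKR1C genes, with an interval above that of PGD but overlapping that of TKT in PBS and cNSF-HA cells. The pentose phosphate genes PGD, TKT and TALDO1 had overlapping intervals. AKR1B1 and ME1 had the smallest changes, but with a trend over GC content and length removed, ME1 (0.70 with cNSF-HA and 0.77 with fNSF-HA on the log2 scale) lay above TALDO1 (0.67 and 0.74). In every comparison between pre-incubations 0% of all genes tested passed, except in fNSF-HA against PBS after tBHP, with 0.139% (19 genes). Few calls among these enzymes therefore do not show that HA left them unchanged. In fNSF-HA against PBS after tBHP the 95% interval (log2 scale) was -0.055 to 0.19 for PGD and -0.44 to 0.42 for AKR1C2. In cNSF-HA against fNSF-HA after tBHP, 4412 genes had an unadjusted p under 0.05, against 0 after adjustment. Among the enzymes ME1 alone passed, in fNSF-HA against PBS after tBHP. That call was lost with 15 of the 18 libraries left out in turn and in 4 of 12 other settings. The ME1 estimate on the log2 scale was 0.33 to 0.42 with a library left out and 0.15 to 0.36 in the other settings. The deposited value of a gene is called its normalized count here, that is, reads scaled by a size factor for each library. Differences were tested with limma on log2(normalized count + 1) across the 13686 genes with a mean normalized count of at least 10, two-sided, with Benjamini-Hochberg adjustment over all of them and a threshold of 0.05. The pseudocount of 1 understates the changes of low genes.

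The AKR1C genes lie side by side on chromosome 10 of GRCh38, AKR1C1 at 4963253 to 4983283 (plus strand), AKR1C2 at 4987400 to 5018031 (minus strand) and AKR1C3 at 5035354 to 5107686 (plus strand), and their transcripts are much alike. The first 90 coding bases of each, from the GENCODE 29 reference transcripts, are shown because reads of 100 nt have to be assigned between them. Capitals mark the 11 positions that are not the same in all 3 genes.
AKR1C1: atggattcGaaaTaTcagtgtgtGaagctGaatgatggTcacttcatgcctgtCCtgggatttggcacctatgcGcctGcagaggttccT
AKR1C2: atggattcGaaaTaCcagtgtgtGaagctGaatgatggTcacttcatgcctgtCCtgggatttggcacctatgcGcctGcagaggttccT
AKR1C3: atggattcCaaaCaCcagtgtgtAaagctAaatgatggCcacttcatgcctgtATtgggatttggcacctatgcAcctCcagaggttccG
In this stretch AKR1C1 and AKR1C2 differed at 1 base, and AKR1C3 differed from them at 11 and 10. Over the 969 coding bases without the stop codon, AKR1C1 and AKR1C2 were identical at 98.0% of positions, AKR1C1 and AKR1C3 at 91.4%, and AKR1C2 and AKR1C3 at 91.0%. Of all stretches of 100 nt in the AKR1C2 transcript, 32.9% also occurred in the transcript of another gene, against 17.4% for AKR1C1 and 4.98% for AKR1C3. The division of reads among these genes is therefore uncertain, and how the counting treated reads that fit several places is not given in the sources used here. NQO1 (chromosome 16, 69706996 to 69726951, minus strand) shares 575 exonic bases with the antisense transcript AC092115.2, and since the library kit does not mark strand, reads of the pair cannot be told apart there. For PGD, TKT, TALDO1, ME1 and AKR1B1 no stretch of 100 nt recurred in another gene's transcript.

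Promoters were searched in RefSeq sequences of GRCh38.p14, from 250 bases before to 50 bases after each annotated start, which covered all 9 genes with 11 start sites. The motif was TGACNNNGC, the core of the antioxidant response element to which NRF2 binds, on both strands. It occurred in 13.3% of 35116 promoter windows of this length and, among these genes, in the windows of PGD and ME1. The strand of the gene is printed, with the match in capitals, because these are the only members with a match.
PGD, chr1:10398843-10398891, plus strand, match beginning 201 bases before the start and on the opposite strand: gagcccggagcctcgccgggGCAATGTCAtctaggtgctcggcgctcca
ME1, chr6:83431160-83431208, minus strand, match beginning 137 bases before the start: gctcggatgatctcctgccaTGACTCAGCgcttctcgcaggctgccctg
The ME1 match also holds TGACTCA, the AP-1 motif, which occurred in 4.95% of all windows, and ME1 had a further TGACNNNGC match 12 bases after its start. In the windows of the other 7 genes these letters were not found. A match is a description of the sequence and not evidence of a binding site, and no match says only that the letters are not in this window.

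Per kilobase of annotated exon, the order of the levels was the same in all 6 groups: PGD, NQO1, TALDO1, TKT, AKR1B1, ME1, AKR1C1, AKR1C2 and AKR1C3. In PBS cells without tBHP, PGD stood at 1599 ± 11.5 normalized counts per kb (SD, n = 3), ME1 at 397 ± 2.96 and AKR1C1 at 9.77 ± 1.52. After tBHP these levels were 3278 ± 89.6, 458 ± 30.3 and 103 ± 12.6. Neighbours in this order did not overlap between libraries of a group, except TALDO1 and TKT in fNSF-HA cells with tBHP. The exon lengths join all annotated transcripts, which for TKT gives 9507 bases, so the place of TKT in the order depends on this choice. Together the 9 genes took 1090 ± 13.9 RPM in PBS cells and 2049 ± 57.6 RPM after tBHP, 1123 ± 27.4 and 2189 ± 137 with cNSF-HA, and 1104 ± 11.0 and 2072 ± 178 with fNSF-HA (SD, n = 3 each).

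**Figure D1:**
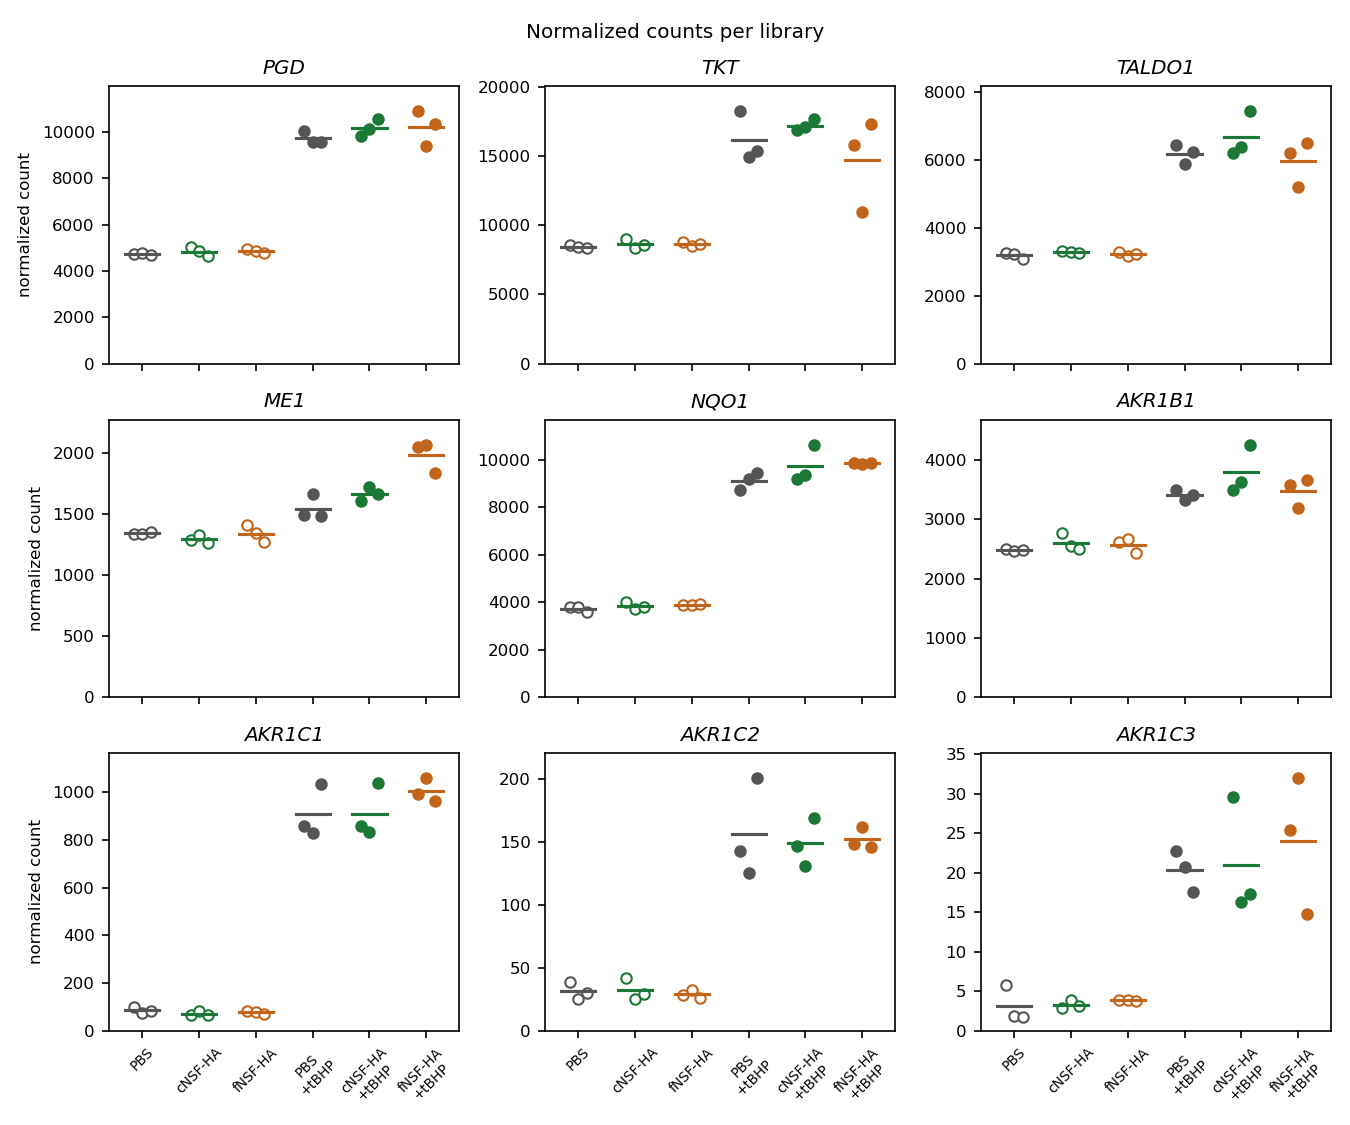
Normalized counts (linear axis from 0) of the 9 enzyme genes in each of 18 libraries by group; open circles are libraries without tBHP, filled circles with tBHP, and the line is the group mean. For each gene the 9 libraries with tBHP lie above the 9 without, from 1261 to 1408 against 1481 to 2065 for ME1 and from 64.1 to 99.5 against 829 to 1057 for AKR1C1.

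The libraries held 20261103 to 26287660 reads on genes. A mean normalized count of 10 was reached by 8 of 8 fibroblast markers, led by FN1, by 1 of 5 epithelial markers (KRT8, with KRT5 and SFTPC at 0), by 1 of 4 endothelial markers (VWF, with CDH5 at 0) and by 0 of 4 blood markers. The endothelial markers summed to 6.52 to 14.8 normalized counts without tBHP and 13.1 to 25.1 with it, and 3 smooth muscle markers, which fibroblasts also make, to 7982 to 8933 and 5178 to 7819. The part of these shifts in the results was not tested, and in bulk RNA fewer cells of a type and less RNA per cell cannot be told apart. Libraries with tBHP varied more between replicates: the median SD of a gene on the log2 scale was 0.076 without tBHP and 0.21 with it. Deviations followed the GC content of the transcripts in part. In fNSF-HA cells with tBHP, replicate 2 stood at 0.25 for the 3132 genes of lowest GC content (up to 41.8%) and at -0.37 for the 3132 of highest (from 56.1%), as the median log2 deviation from the group mean, and replicate 3 at -0.22 and 0.30. Transcripts of ME1 (39.5% GC), AKR1C2 and AKR1C3 belong to the low-GC genes and those of TALDO1 (56.5%) to the high-GC genes, with TKT (56.0%) close to them. For several results the value with a trend over GC content and length removed from each library is given too. Both were removed together, so their parts cannot be told apart.

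The first question was how the oxidant changed each enzyme. All 9 genes passed the test as higher in each pre-incubation, against 24.2% of all genes tested called higher in PBS cells, 24.0% with cNSF-HA and 19.2% with fNSF-HA. No member was called lower, against 26.9%, 26.8% and 22.7% of all genes. The members were chosen with earlier results of these data known, so these counts are a description. Of the 9, AKR1C3 passed the filter on low values only through the libraries with tBHP, so it had to differ and adds nothing to the count of higher genes. The median log2 change of the other 8 was 1.00 in PBS cells, 1.04 with cNSF-HA and 0.97 with fNSF-HA, whereas the median over all genes tested was 0.0043, -0.00053 and -0.034.

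PGD encodes 6-phosphogluconate dehydrogenase, the second NADPH-making step of the oxidative branch. Its normalized counts in PBS cells were 4748, 4776 and 4708 without tBHP and 10027, 9589 and 9548 with it. All PBS libraries with tBHP lay well above those without, and neither set spread widely. The log2 change was 1.03 ± 0.059 (SE; 2.05-fold, adjusted p = 2.2e-10, limma) in PBS cells, 1.08 with cNSF-HA and 1.07 with fNSF-HA. PGD varied little between replicates, with an SD of 0.036 without tBHP and 0.072 with it on the log2 scale. With the GC and length trend removed, the change in PBS cells was 0.85.

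TKT and TALDO1 encode transketolase and transaldolase, which carry out the carbon exchanges of the non-oxidative branch. TKT had the highest normalized counts of the 9 genes, 8590, 8393 and 8335 in PBS cells without tBHP and 18238, 14958 and 15329 with it. In fNSF-HA cells TKT went from 8784, 8472 and 8672 to 15784, 10934 and 17348. The second of these libraries was low for TKT compared with the other 8 with tBHP, yet still above all 9 libraries without it. The log2 change of TKT was 0.93 ± 0.12 in PBS cells (1.91-fold, adjusted p = 3.4e-06, limma), 0.99 with cNSF-HA and 0.74 with fNSF-HA, where it was 0.94 without replicate 2 of the fNSF-HA cells with tBHP. TALDO1 ranged from 3075 to 3335 over the 9 libraries without tBHP and from 5204 to 7447 over the 9 with it. Its log2 change was 0.96 ± 0.079 in PBS cells (1.94-fold, adjusted p = 2.7e-08), 1.01 with cNSF-HA and 0.88 with fNSF-HA. With the GC and length trend removed, TKT and TALDO1 both had a log2 change of 0.70 in PBS cells, and the change of TALDO1 in cNSF-HA cells was 0.67. The intervals of PGD, TALDO1 and TKT overlapped in each pre-incubation.

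ME1 encodes the cytosolic malic enzyme. In PBS cells its normalized counts were 1336, 1332 and 1351 without tBHP and 1488, 1661 and 1481 with it. The groups did not overlap, but the highest library without and the lowest with tBHP were close. The log2 change was 0.20 ± 0.068 in PBS cells (1.15-fold, adjusted p = 0.0198, limma), 0.36 ± 0.068 with cNSF-HA (1.29-fold) and 0.57 ± 0.068 with fNSF-HA (1.48-fold). In PBS cells the change was 0.15 without replicate 2 of the PBS cells with tBHP, which ended the call (adjusted p = 0.101), as did leaving out replicate 1 or 2 of the PBS cells without tBHP (adjusted p = 0.0507 and 0.0551). Over all low-GC genes the median log2 change in PBS cells was -0.41, against 0.26 over the high-GC genes. With this trend removed the change of ME1 was 0.60 in PBS cells, 0.70 with cNSF-HA and 0.77 with fNSF-HA.

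NQO1 encodes the quinone oxidoreductase that reduces quinones to hydroquinones with NADH or NADPH. In PBS cells its normalized counts were 3778, 3792 and 3586 without tBHP and 8726, 9186 and 9438 with it. In fNSF-HA cells with tBHP they were 9877, 9828 and 9873, the tightest set of the 6 groups. The lowest of the 9 libraries with tBHP was 2.19 times as high as the highest of the 9 without. The log2 change was 1.29 ± 0.060 in PBS cells (2.45-fold, adjusted p = 1.5e-11, limma), 1.33 with cNSF-HA and 1.34 with fNSF-HA. Its interval lay above that of PGD, the next gene in the order of changes, and below that of the AKR1C gene before it in each pre-incubation.

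AKR1B1 encodes aldose reductase, which reduces glucose and lipid aldehydes. It ranged from 2427 to 2766 over the 9 libraries without tBHP, with a median of 2501, and from 3185 to 4256 with a median of 3493 over the 9 with tBHP. The highest value was that of replicate 3 of the cNSF-HA cells, a library that was also the highest of all for TALDO1 and NQO1. The log2 change was 0.46 ± 0.076 in PBS cells (1.37-fold, adjusted p = 7.7e-05, limma), 0.54 with cNSF-HA and 0.43 with fNSF-HA. With the GC and length trend removed it was 0.27, 0.30 and 0.30 and passed the test in each. AKR1B1 and ME1 had overlapping intervals in each pre-incubation.

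AKR1C1, AKR1C2 and AKR1C3 encode reductases of steroid ketones and of aldehydes. AKR1C1 had normalized counts of 99.5, 72.8 and 84.7 in PBS cells without tBHP and 858, 829 and 1033 with it. With cNSF-HA they were 66.8, 84.1 and 64.1 and then 856, 833 and 1038, and with fNSF-HA 82.4, 79.8 and 71.7 and then 994, 1057 and 965. The lowest library with tBHP was 8.33 times as high as the highest without it. The log2 change was 3.39 ± 0.13 in PBS cells (10.5-fold, adjusted p = 1.5e-12, limma), 3.65 with cNSF-HA (12.6-fold) and 3.67 with fNSF-HA (12.8-fold).

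AKR1C2 ranged from 25.2 to 42.0 normalized counts over the 9 libraries without tBHP with a median of 28.9, and from 125 to 200.2 with a median of 147 over the 9 with it. Its log2 change was 2.27 ± 0.21 in PBS cells (4.83-fold, adjusted p = 7.8e-08, limma), 2.20 with cNSF-HA and 2.35 with fNSF-HA. AKR1C3 was near the detection limit, with 2 to 6 reads in each library without tBHP and 13 to 30 with it. From summed reads of 3 libraries a group, 10 and 55 in PBS cells, it was 6.61 times as high with tBHP (95% exact interval 3.34 to 14.6), and the ratio was 6.35 (3.23 to 13.9) with cNSF-HA and 6.30 (3.40 to 12.8) with fNSF-HA. These intervals cover counting error only. With the GC and length trend removed, the log2 change in PBS cells was 3.61 for AKR1C1 and 2.63 for AKR1C2. The fitted log2 change of AKR1C3 depended on the pseudocount, at 2.49 in PBS cells and 1.67 with a pseudocount of 5.

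Of the reads counted on AKR1C1, AKR1C2 and AKR1C3, AKR1C1 held 71.5% ± 2.09 in PBS cells and 83.8% ± 1.22 with tBHP (SD, n = 3). With cNSF-HA its share was 66.9% ± 7.16 and 84.2% ± 1.13, and with fNSF-HA 70.4% ± 1.59 and 85.1% ± 0.602. The summed normalized count of the 3 genes, which does not depend on how reads were divided among them, went from 120 ± 22.2 to 1083 ± 147 in PBS cells, from 107 ± 9.49 to 1079 ± 128 with cNSF-HA and from 111 ± 8.10 to 1181 ± 64.0 in fNSF-HA cells.

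**Figure D2:**
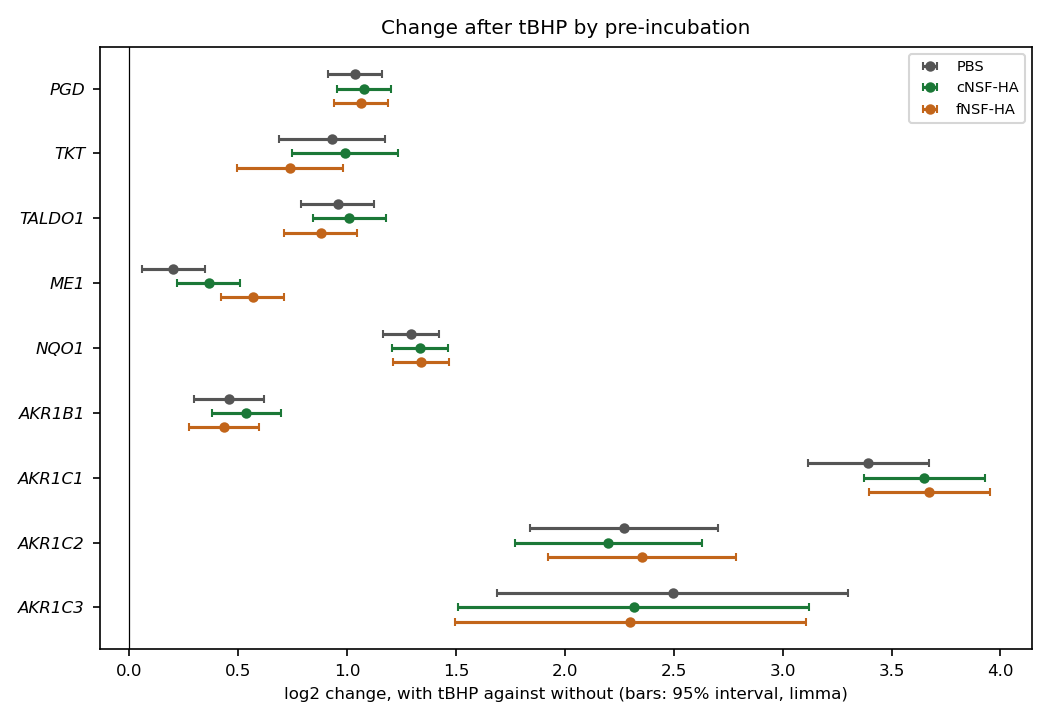
Log2 change of each enzyme gene with tBHP against without (x axis), by pre-incubation; points are limma estimates and bars their 95% intervals. All intervals lie above 0, AKR1C1 is farthest out at 3.39 to 3.67, and ME1 at 0.20 in PBS cells is nearest to 0.

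Other genes of the same pathways, from lists written by hand, did not all move with these enzymes. Of the 14 other NADPH-producing genes tested (of 15 listed), 5 rose and 5 fell in PBS cells, against 24.2% and 26.9% of all genes, with a median log2 change of -0.029. MTHFD2 (1.40) and ALDH1L2 (0.60), both mitochondrial folate enzymes, were among those that rose. The largest falls were those of ME2 (-0.63), the mitochondrial malic enzyme, NADK2 (-0.55), the mitochondrial NAD kinase, and MTHFD1 (-0.39), a cytosolic folate enzyme. ME1 and ME2 thus moved in opposite directions in PBS cells, at 1544 ± 102 and 895 ± 66.0 normalized counts with tBHP. No value with the GC and length trend removed is given for ME2.

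The other pentose phosphate genes, which interconvert or consume pentose phosphates, went down where they passed the test. Of 8 tested (of 10 listed), 0 rose and 6 fell in each pre-incubation, with a median log2 change of -0.44 in PBS cells. Of all genes, 26.9% fell in PBS cells, 26.8% with cNSF-HA and 22.7% with fNSF-HA. PRPS1, which makes phosphoribosyl pyrophosphate for nucleotide synthesis, fell most at -1.07 ± 0.062 (adjusted p = 2.8e-10, limma), from 2426 ± 25.5 to 1154 ± 33.8 normalized counts. PGM2, a phosphopentomutase, followed at -0.82 and RPE, ribulose-5-phosphate epimerase, at -0.52. PGD, TKT and TALDO1 rose beside these falls. Over all low-GC genes the median log2 change in PBS cells was -0.41, and the part of GC content in the falls of this list was not tested.

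Among the other quinone and carbonyl reductases, 6 rose and 2 fell of 16 tested (of 20 listed) in PBS cells, against 24.2% and 26.9% of all genes, with a median log2 change of 0.18. CBR3 (0.73), a carbonyl reductase, BLVRB (0.67), which reduces biliverdin and flavins, and NQO2 (0.58), the relative of NQO1, had the largest rises among genes with a mean normalized count of at least 100. The 2 that fell were CRYZ (-0.30), the zeta-crystallin quinone reductase, and its relative CRYZL1 (-0.38). AKR1B10, a lower gene named after its values were seen, went from 8.29 ± 2.52 to 105 ± 7.38 normalized counts in PBS cells, and is among the 6. It passed the filter on low values only through the libraries with tBHP, so it had to differ. AKR1B1, its relative among the 9 enzyme genes, changed by 0.46.

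Of 17 other NRF2 targets tested (of 18 listed), 16 rose and 0 fell in PBS cells, against 24.2% and 26.9% of all genes, with a median log2 change of 1.34. OSGIN1 (3.20), HMOX1 (2.96), the heme oxygenase, and SLC7A11 (2.67), the cystine transporter, rose most, and the exception was GCLC at 0.17 (adjusted p = 0.143, limma). NFE2L2, which encodes NRF2, changed by 0.66 ± 0.077 in PBS cells, from 1874 ± 35.9 to 2956 ± 201 normalized counts. Of the 8 genes of NRF2 and its regulators, 6 rose and 1 fell in the same comparison, led by SQSTM1 (2.15), MAFG (1.46) and MAFF (0.88), with CUL3 at -0.26. These lists were written with earlier results of these data known, so their counts are a description.

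**Figure D3:**
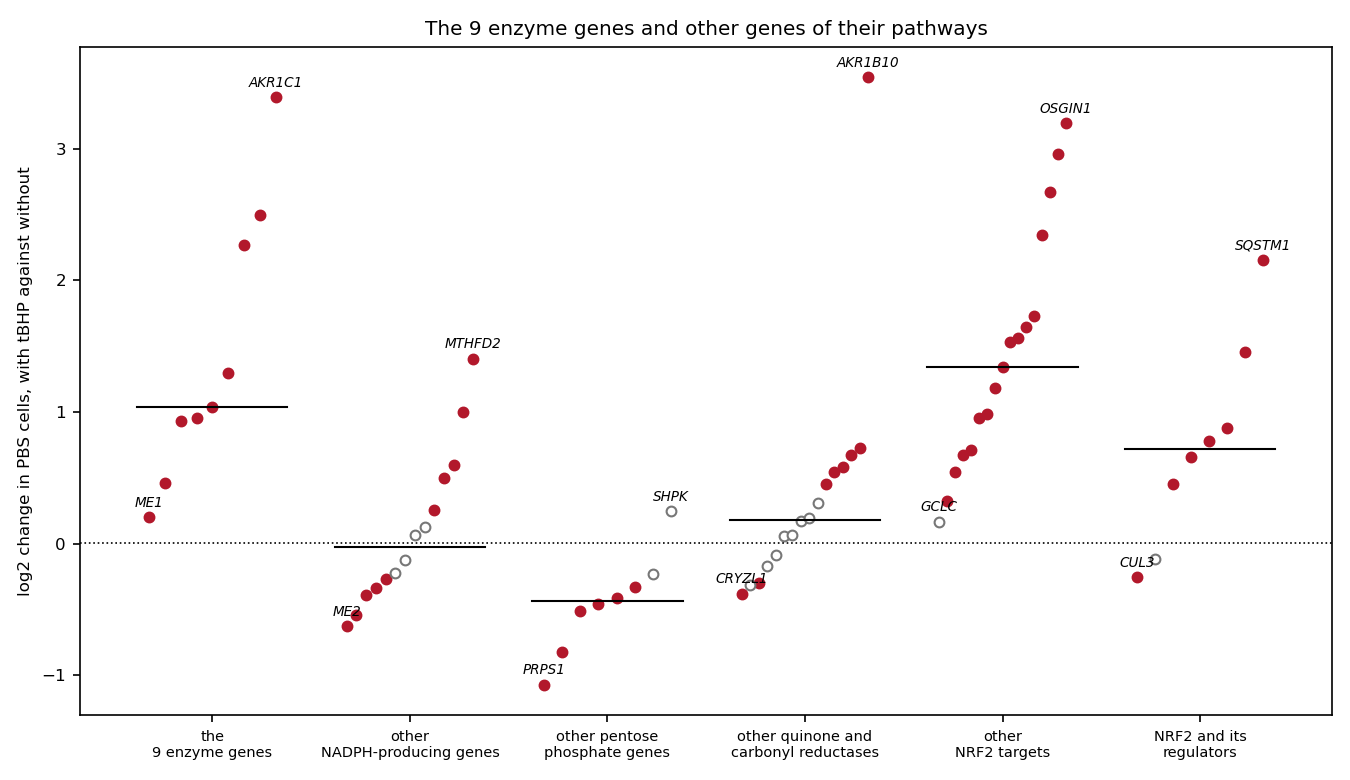
Log2 change in PBS cells with tBHP against without (y axis) for each tested gene of 6 lists; filled points passed the test, open points did not, horizontal lines are list medians and the dotted line is the median over all genes. The 9 enzyme genes have a median of 1.03 (1.00 without AKR1C3), the other NRF2 targets 1.34 and the other pentose phosphate genes -0.44, and gene names mark each list's lowest and highest value.

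The second question was whether HA of either length changed these enzymes before the oxidant. Without tBHP, 0 of the 9 genes passed limma's test in cNSF-HA against PBS, in fNSF-HA against PBS or in cNSF-HA against fNSF-HA, against 0%, 0% and 0% of all genes tested. An unadjusted p under 0.05 was reached by 0 members in each comparison, and edgeR and DESeq2 also called 0 members. Over all genes, 126, 109 and 206 had an unadjusted p under 0.05. A fit of the compared groups alone called 980 genes in cNSF-HA against fNSF-HA, but 0 members. PGD differed by 0.026 (95% interval -0.098 to 0.15) between cNSF-HA and PBS cells and NQO1 by 0.048 (-0.079 to 0.18). The largest difference among the 8 genes other than AKR1C3 was that of AKR1C1, -0.25 in cNSF-HA against PBS (-0.53 to 0.025, adjusted p = 1.00, limma). AKR1C1 had overlapping libraries in these groups, so this difference was not beyond their spread. For AKR1C2 and AKR1C3 the intervals reached beyond 0.3 on both sides in each of these comparisons, which leaves room for differences of that size at this depth.

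The third question was whether HA changed the levels reached after tBHP. In cNSF-HA against PBS, 0 of 9 genes passed the test, against 0% of all genes, and 0 members had an unadjusted p under 0.05. AKR1B1 had the largest difference, 0.15 (95% interval -0.012 to 0.31, adjusted p = 0.595, limma). Without replicate 3 of the cNSF-HA cells with tBHP it was 0.063. Among the members, edgeR and DESeq2 called 0. In fNSF-HA against PBS, 1 of 9 genes passed, ME1, against 0.139% of all genes (19 genes). In cNSF-HA against fNSF-HA, 0 of 9 passed, against 0% of all genes, while 2 members (ME1 and TKT) and 4412 genes had an unadjusted p under 0.05. DESeq2 called ME1 alone among the members there, with 923 genes in all, and edgeR called 0 members.

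After tBHP, ME1 had normalized counts of 2047, 2065 and 1837 with fNSF-HA, of 1609, 1716 and 1664 with cNSF-HA and of 1488, 1661 and 1481 with PBS. All fNSF-HA libraries lay above those of both other groups, and the cNSF-HA and PBS libraries overlapped. The log2 difference between fNSF-HA and PBS cells was 0.36 ± 0.068 (95% interval 0.22 to 0.51, 1.28-fold, adjusted p = 0.0433, limma), and ME1 was the 16th of the 19 called genes by p. Between cNSF-HA and fNSF-HA cells it was -0.25 (-0.40 to -0.11, adjusted p = 0.0981), which did not pass, and -0.041 with the GC and length trend removed.

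The ME1 call was lost under several settings. Of the 19 genes called, 17 had a GC value and 13 of these were low-GC genes, whose median log2 difference between fNSF-HA and PBS cells was 0.20, against -0.25 for the high-GC genes. With the GC and length trend removed from each library, the ME1 difference was 0.15 (adjusted p = 0.231). The call was also lost when only the compared groups were fitted (adjusted p = 0.656), without the filter on low values (0.0983) and with each of 15 libraries of 18 left out in turn (0.0569 to 0.173). Leaving out replicate 2 of the fNSF-HA cells with tBHP gave 0.33 (adjusted p = 0.112). It held in edgeR (adjusted p = 0.0371) and DESeq2 (0.000159), which called 36 and 442 genes in all. The estimate stayed above 0 in all 30 settings tried.

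TKT and TALDO1 had lower means in fNSF-HA than in cNSF-HA cells after tBHP, without passing the test. After tBHP, TKT had normalized counts of 15784, 10934 and 17348 with fNSF-HA, of 16847, 17064 and 17696 with cNSF-HA and of 18238, 14958 and 15329 with PBS. The fNSF-HA libraries spread most, 1 of them below all libraries of the other groups, and overlapped both. In cNSF-HA against fNSF-HA the difference was 0.25 for TKT (95% interval 0.011 to 0.50, adjusted p = 0.141, limma) and 0.16 for TALDO1 (-0.0030 to 0.33, adjusted p = 0.160). The fit shares 1 estimate of spread for a gene over all 18 libraries. On the log2 scale the SD of TKT was 0.036 without tBHP and 0.22 with it, and that of TALDO1 0.031 and 0.13. These intervals therefore understate the spread of the libraries compared. With the GC and length trend removed TKT was at 0.16 and TALDO1 turned to -0.069. Without replicate 3 of the fNSF-HA cells with tBHP these were 0.39 (adjusted p = 0.00912) and 0.23 (0.0314), ME1 was at -0.31 (0.00371), and 5586 genes in all were called. Without replicate 2 of the same group the TKT difference was 0.056 and none of the 9 genes passed.

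**Figure D4:**
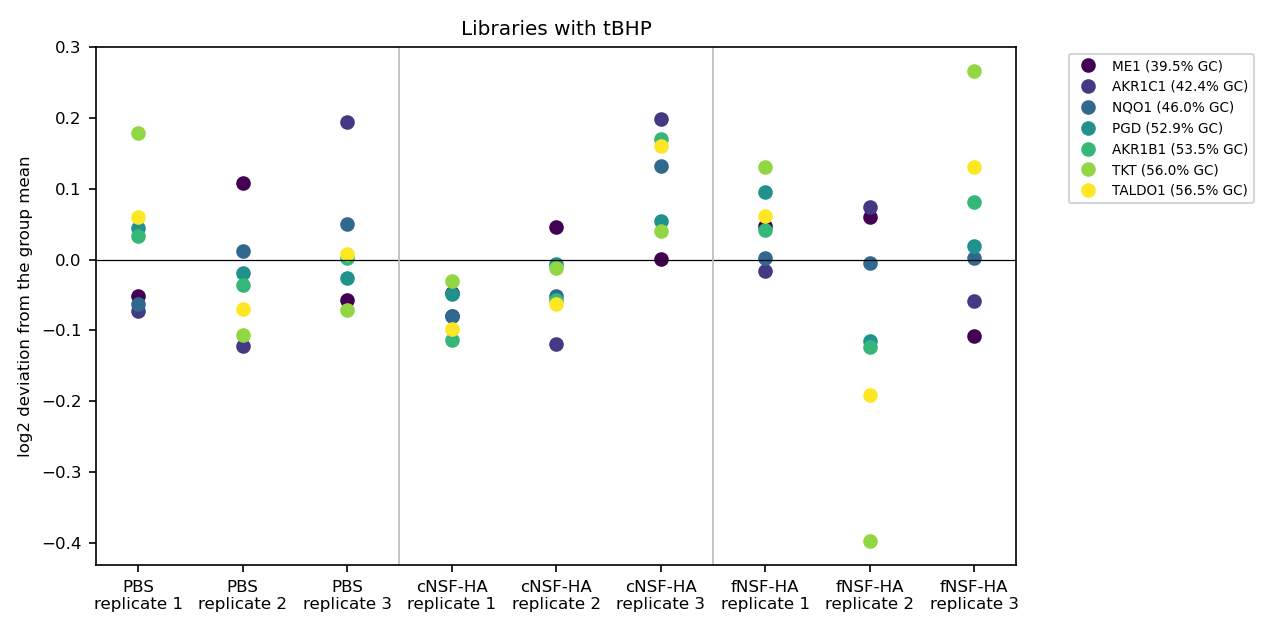
Log2 deviation of 7 enzyme genes from their group mean (y axis) in each of the 9 libraries with tBHP, shaded from low to high GC content of the transcript; AKR1C2 and AKR1C3 are left out. In replicate 2 of the fNSF-HA cells TKT and TALDO1 lie lowest and ME1 above 0, and in replicate 3 this order is turned around.

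NQO1 differed by 0.11 (95% interval -0.013 to 0.24) between fNSF-HA and PBS cells after tBHP and by -0.024 (-0.15 to 0.10) between cNSF-HA and fNSF-HA cells. PGD differed by 0.070 (-0.055 to 0.19) and -0.0020 (-0.13 to 0.12) in the same comparisons. These intervals leave out differences of 0.25 or more in size for both genes. AKR1C1 was at 906 ± 110 normalized counts in PBS cells, 909 ± 112 with cNSF-HA and 1005 ± 47.4 with fNSF-HA (SD, n = 3), and its differences were 0.0037 (cNSF-HA against PBS) and 0.15 (fNSF-HA against PBS, -0.12 to 0.43).

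**Figure D5:**
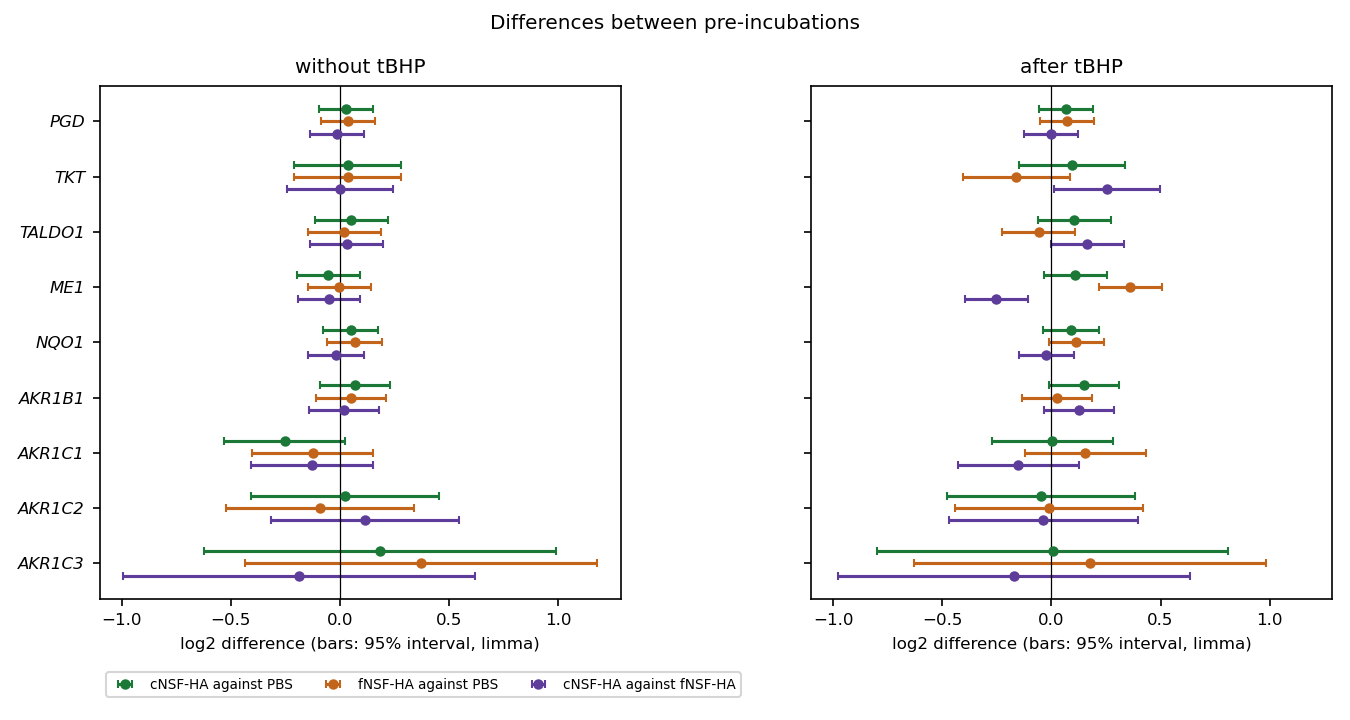
Log2 differences of the 9 enzyme genes between pre-incubations (x axis), without tBHP on the left and after tBHP on the right; points are limma estimates and bars their 95% intervals. Most intervals cross 0; ME1 after tBHP lies at 0.36 for fNSF-HA against PBS and at -0.25 for cNSF-HA against fNSF-HA.

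The size of the tBHP response itself was compared between pre-incubations as an interaction in the same model. No member passed in cNSF-HA minus PBS, fNSF-HA minus PBS or cNSF-HA minus fNSF-HA (0 of 9 each in limma), against 0%, 0% and 0% of all genes. edgeR and DESeq2 also called 0 members, and DESeq2 called 6 genes in all in fNSF-HA minus PBS. An unadjusted p under 0.05 was reached by 0, 1 and 0 members, and by 555, 942 and 533 of all genes. The 1 member was ME1, whose response was larger in fNSF-HA than in PBS cells by 0.36 (95% interval 0.16 to 0.57, adjusted p = 0.667), or by 0.18 with the GC and length trend removed. For PGD and NQO1 the responses differed by at most 0.048 between HA and PBS cells, with intervals of about 0.18 on each side. For AKR1C1 they differed by 0.26 (-0.14 to 0.65) in cNSF-HA and 0.28 (-0.11 to 0.67) in fNSF-HA cells against PBS. A larger AKR1C1 response in either HA group could therefore not be told from none at this spread.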

How the data were processed

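The authors extracted RNA from IMR90 cells with Trizol, made TruSeq RNA V2 libraries of polyA RNA and sequenced single-end reads of 100 nt. The submitters' processing notes name Trimmomatic 0.32, STAR 2.5.2b, featureCounts of Subread 1.5.0-p3, DESeq2 and the build GRCh38.p7, and the counting settings are not given in the sources used here. The deposited signal is, per gene and library, the read count divided by a DESeq2 size factor. All values were whole multiples of 1 read (tolerance 0.01), so reads were recovered. The table also holds p-values, q-values and a ranking score that the authors deposited from their own comparison, which were not used.

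Groups came from the labels. limma 3.58.1 (R 4.3.3, mean-variance trend, 1 coefficient per group, all 18 libraries) was fitted to log2(normalized count + 1) for genes with a mean of at least 10. edgeR 4.0.16 (quasi-likelihood) and DESeq2 1.42.0 on recovered reads, other pseudocounts (0.1, 5), filters, scalings and library weights, a replicate block, removal of a GC and length trend (natural splines with 5 degrees of freedom, GENCODE 29, 12528 genes, 91.5% of those tested) and each library left out were tried as alternatives. The fit was tested on simulated data, and the outcome is not reported here. Between replicates, the chi-square statistic of the counts per degree of freedom was 1.48 to 2.69 without tBHP and 2.86 to 71.2 with it.

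The members and the gene lists were chosen with earlier results of these data known. Besides all members, the text names NFE2L2 and, of each other list, up to 3 rises and 3 falls, the largest in PBS cells among genes called with a mean of at least 100, and 1 gene that this rule names is not reported here. The 3 genes most like NQO1, AKR1C1, ME1 and PGD over the libraries were named by Pearson's r. The labels do not say whether the same replicate numbers pair the libraries of different groups, and the numbers were not treated as pairs. No protein sequence was used here.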

Additional observations from a re-analysis of the deposited data

How the results depend on the processing

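Of the 12 comparisons, 10 kept their count of called members within 1.5 times under all 30 settings: 8 to 9 for the tBHP responses (8 where AKR1C3 fell under a minimum mean of 50 or, in fNSF-HA cells with library weights, did not pass, and where ME1 lost its call in PBS cells without PBS replicate 1 or 2 or replicate 2 of the PBS cells with tBHP) and 0 for the others. In fNSF-HA against PBS after tBHP the count was 1 and became 0 without the filter, with only the compared groups, with library weights (a fit that stopped before convergence) and with the GC trend removed, and it ranged from 0 to 2 with 1 library left out. In cNSF-HA against fNSF-HA after tBHP it was 0, 1 in DESeq2 and 0 to 3 with 1 library left out, the 3 without replicate 3 of the fNSF-HA cells with tBHP. The causes were not tested. The replicate block called 1 member and 61 genes in fNSF-HA against PBS after tBHP (19 without the block), and changed no other member's call. As a check of the pairing, deviations of libraries with the same number correlated between -0.12 and 0.33 over 45 pairs, with 7 above 0.1, so the numbers were not treated as pairs.

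Counts over all genes moved more. In fNSF-HA against PBS after tBHP they were 19, 3 without the filter, 30 at a minimum mean of 50, 0 with only the compared groups or library weights, 63 with the GC trend removed, 36 in edgeR, 442 in DESeq2 and 0 to 4024 with 1 library left out. In cNSF-HA against fNSF-HA after tBHP they were 0, 923 in DESeq2 and 0 to 5586 with 1 library left out, both highest values without replicate 3 of the fNSF-HA cells with tBHP. Library weights gave 1054 genes in cNSF-HA against PBS after tBHP and 240 in the response difference between them, and without tBHP a fit of the compared groups alone gave 980 in cNSF-HA against fNSF-HA and library weights 132. AKR1C3 and AKR1C2 had the fewest reads, 2 to 30 and 26 to 183 in a library.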

Other observations

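Genes whose levels followed those of the enzymes most closely over the 18 libraries were sought among 10313 genes with a mean of at least 100, by Pearson's r of the log2 values. The libraries with and without tBHP lie apart for the enzymes, and values of a library share its depth and preparation, so r is a description and carries no test. For NQO1 they were GARS (0.998), HSPA5 (0.997) and GABARAPL1 (0.997), the first a tRNA synthetase and the second the main chaperone of the endoplasmic reticulum. For AKR1C1 they were DDIT3 (0.997), which encodes the stress factor CHOP, HSPA5 (0.996) and GABARAPL1 (0.996). For PGD they were YARS (0.998) and CARS (0.997), both tRNA synthetases, and CDKN1A (0.997), the CDK inhibitor p21. ME1 had looser neighbours, CSNK2A2 (0.958), TMBIM6 (0.949) and HSPH1 (0.948).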
